A study of Mus musculus with 4 samples.

Results

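The constant genes of the T cell receptor were followed across the immune cells of 4 mouse mammary tumors. The set was fixed by name and holds 8 of the 32285 genes of the count table: Trac, Trbc1, Trbc2, Trdc, Tcrg-C1, Tcrg-C2, Tcrg-C4 and, for a comparison within the gamma locus, the variable segment Trgv2. All 8 had a column in the table, which also held a gamma constant column outside the set, Tcrg-C3. The tumors were grown from EO771, a mammary tumor cell line of C57BL/6 origin, in the fat pads of female mice. Each of the 2 Chromium runs pooled a Csf1rfl/fl tumor, whose host carried floxed Csf1r and no Cre, with a Lyve1CreCsf1rfl/fl tumor, whose host also carried Cre under the control of Lyve1. Lyve1 is active in a subset of macrophages and in lymphatic endothelium. Viable CD45+ cells were sorted, and hashtag antibodies marked the tumor of origin. The ages of the mice were not given in the sources used here.

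T cells recognize antigen through a receptor of paired chains, either alpha with beta or gamma with delta. Each chain joins a rearranged variable part to a constant part, and the constant genes are read from the 3′ end of the transcript by this assay whatever the variable part. Trac encodes the alpha constant part, Trbc1 and Trbc2 are alternative beta constant genes, Trdc encodes the delta constant part, and Tcrg-C1, Tcrg-C2 and Tcrg-C4 encode gamma constant parts. Trdc lies inside the alpha locus and is deleted from a chromosome when the alpha chain is rearranged there. NK cells mature without rearranging these loci, so a transcript of a constant gene in an NK cell need not encode a receptor.

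In the GENCODE annotation of mm10 (GRCm38), Trbc1 lies at chr6:41538218-41539881 and Trbc2 at chr6:41546730-41548352, both on the plus strand with 6848 bases between them. Both have 4 exons and 518 coding bases, of which 23 differ. Exon 1, with 375 coding bases, holds 1 of the differences, and the 143 coding bases of exons 2 to 4 hold the other 22. These 143 bases are shown because they hold nearly all the coding bases that differ between both genes. They are the coding parts of exons 2 to 4 within chr6:41539114-41539662 for Trbc1 and chr6:41547610-41548178 for Trbc2, plus strand, 5′ to 3′, introns left out. Capitals mark the bases that differ.
Trbc1: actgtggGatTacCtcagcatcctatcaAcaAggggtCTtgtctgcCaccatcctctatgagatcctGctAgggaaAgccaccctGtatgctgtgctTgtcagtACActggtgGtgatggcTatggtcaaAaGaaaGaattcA
Trbc2: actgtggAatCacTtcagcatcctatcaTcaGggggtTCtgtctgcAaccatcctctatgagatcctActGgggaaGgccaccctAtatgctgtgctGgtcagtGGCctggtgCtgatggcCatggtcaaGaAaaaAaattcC
The transcript after the coding bases, toward which 3′ reads are biased, is 219 bases long in Trbc1 and 174 in Trbc2. It was 49.6% identical when aligned, and the longest run shared by both genes there was 8 bases. The coding bases share a run of 259, where a read may not be assigned to either gene. Where the reads lay was not tested, so the split of UMIs (unique molecular identifiers, the counted molecules) between Trbc1 and Trbc2 is that of the authors' counting.

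The gamma genes lie on chromosome 13. Tcrg-C1 is at chr13:19214103-19217024 on the plus strand, Tcrg-C2 at chr13:19304649-19307551 and Trgv2 at chr13:19336573-19337167 on the minus strand, and Tcrg-C4 at chr13:19344558-19352756 on the plus strand. Tcrg-C2 and Trgv2 are 29021 bases apart. The coding exons between the first and the last are shown because they differ most in length between the gamma genes, with 15 extra bases of Tcrg-C1 in capitals. They lie at chr13:19215864-19215908 for Tcrg-C1, at chr13:19305769-19305798 on the minus strand for Tcrg-C2, and within chr13:19349536-19350374 for Tcrg-C4, where both inner exons are joined, all written 5′ to 3′.
Tcrg-C1: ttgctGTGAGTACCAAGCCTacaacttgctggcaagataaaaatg
Tcrg-C2: ttgctacaacttgctggcaagataaaaatg
Tcrg-C4: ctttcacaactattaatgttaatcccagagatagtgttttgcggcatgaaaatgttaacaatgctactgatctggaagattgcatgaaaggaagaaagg
After the coding bases, Tcrg-C1 and Tcrg-C2 were 93.2% identical, with a shared run of 104 bases, so reads in that stretch may not be assigned to 1 of the pair and the split between them is uncertain. Tcrg-C1 and Tcrg-C4 were 55.8% identical there, with no shared run above 9 bases. Trac at chr14:54220521-54224206 and Trdc at chr14:54142851-54148868 share the plus strand and have 71652 bases between them.

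The table held 53361 barcodes, of which the authors kept 28429, and these were analysed from their uncorrected UMIs. The Csf1rfl/fl tumors of runs 1 and 2 gave 8699 and 7786 kept cells and the Lyve1CreCsf1rfl/fl tumors 7173 and 4771, with medians of 3721 to 4657 UMIs per cell. Ptprc, which encodes CD45, was detected in 85.8% to 91.1% of the cells of each tumor. Csf1r, the floxed gene, was first read over all kept cells. It was at 0.898 and 0.964 UMIs per 10000 in the Csf1rfl/fl tumors and at 0.427 and 0.454 in the Lyve1CreCsf1rfl/fl tumors. In the monocytes and macrophages described below, which Csf1r helped to choose, it was at 2.12 and 2.25 against 1.39 and 1.51. That class made up 25.9% and 24.7% of kept cells in the Csf1rfl/fl tumors and 18.5% and 17.2% in the Lyve1CreCsf1rfl/fl tumors. A 3′ read need not lie in the floxed part. Cells were assigned to classes by lineage genes other than those of the receptor. T cells had 2 or more UMIs of Cd3d, Cd3e and Cd3g together and NK cells had 2 or more of Ncr1, Klrb1c and Klre1 with none of the 3 Cd3 genes. Both had to be nearly free of myeloid, dendritic and B cell markers, and the myeloid classes had to have no UMI of the Cd3 or NK genes. This gave 5694 T cells and 1321 NK cells, beside 6324 monocytes and macrophages, 5305 neutrophils, 2257 dendritic cells and 542 plasmacytoid dendritic cells. The T cells comprised 2486 CD8 T cells, 524 conventional CD4 T cells, 1254 regulatory T cells with Foxp3 UMIs, 223 cells with mixed co-receptor UMIs and 2 sets of cells with no UMI of Cd4, Cd8a, Cd8b1 or Foxp3. In the first set, 39 cells carried 2 or more UMIs of genes typical of gamma delta T cells that make IL-17, such as Cd163l1, Sox13 and Blk, and the second held the other 1168. CD8 T cells had Cd8a or Cd8b1 without Cd4 or Foxp3, and conventional CD4 T cells had Cd4 without Cd8a, Cd8b1 or Foxp3. Regulatory T cells had Foxp3 without Cd8a or Cd8b1, with or without Cd4. Regulatory T cells whose Foxp3 was not read fall in other classes, such as the conventional CD4 T cells, and their number was not tested. The other 6986 kept cells fell in no class. Among them were 2591 cells with Cd3 UMIs and more than 2 myeloid UMIs, a median of 9425 UMIs per cell and 31.2% of all Trac UMIs, and the share of doublets among them was not tested. The runs shared 60 barcode sequences, which 120 cells carried. Each tumor is 1 replicate. The permutation tests use the tumors alone, and the tests of single genes use a spread between tumors that is shared over genes.

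Of the 8 genes, Trbc2 gave 47655 UMIs over the kept cells, Trac 28381 and Trbc1 17690. The gamma and delta genes were read less often, from 3729 UMIs for Trgv2, 2639 for Tcrg-C2, 1399 for Trdc and 752 for Tcrg-C4 down to 398 for Tcrg-C1. The T cells held 59.96% of the Trac, 55.2% of the Trbc2 and 40.4% of the Trbc1 UMIs. The cells in no class held another 38.5%, 40.5% and 42.4%.

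Levels below are UMIs per 10000 UMIs of the class in a tumor, as the mean ± SD over the 4 tumors. They are levels of 1 gene across classes and are not corrected for transcript length, so they do not rank the genes against each other. Values for single tumors are given first for the Csf1rfl/fl tumors of runs 1 and 2 and then for the Lyve1CreCsf1rfl/fl tumors of runs 1 and 2.

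Trac marked the T cells. It was at 6.75, 5.38, 6.02 and 5.67 UMIs per 10000 in CD8 T cells, at 7.23, 8.11, 7.21 and 7.90 in conventional CD4 T cells, and at 7.23, 7.91, 6.75 and 8.22 in regulatory T cells. All 4 tumors were higher in conventional CD4 than in CD8 T cells on this scale, and the ranges of conventional CD4 and regulatory T cells overlapped. The means were 5.95 ± 0.59, 7.61 ± 0.46 and 7.53 ± 0.66 (n = 4). A Trac UMI was found in 88.0% ± 2.4 of CD8, 85.8% ± 3.2 of conventional CD4 and 88.5% ± 2.3 of regulatory T cells. Trac fell to 0.166 ± 0.019 in NK cells, with a UMI in 7.05% ± 0.84 of cells. Monocytes and macrophages, which should lack the gene and show what free RNA and stray cells add, had 0.0473 ± 0.0235 and a UMI in 2.23% ± 1.16 of cells. That class had no Cd3 UMI by its choice. With Cd3 UMIs allowed in it, Trac was at 0.694, above the NK cells, which were still chosen without Cd3 UMIs. Median depth was 4411 UMIs in CD8 T cells, 3815 in NK cells and 4725 in monocytes and macrophages. In NK cells the highest Trac count of any cell was 3 UMIs.

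**Figure D1:**
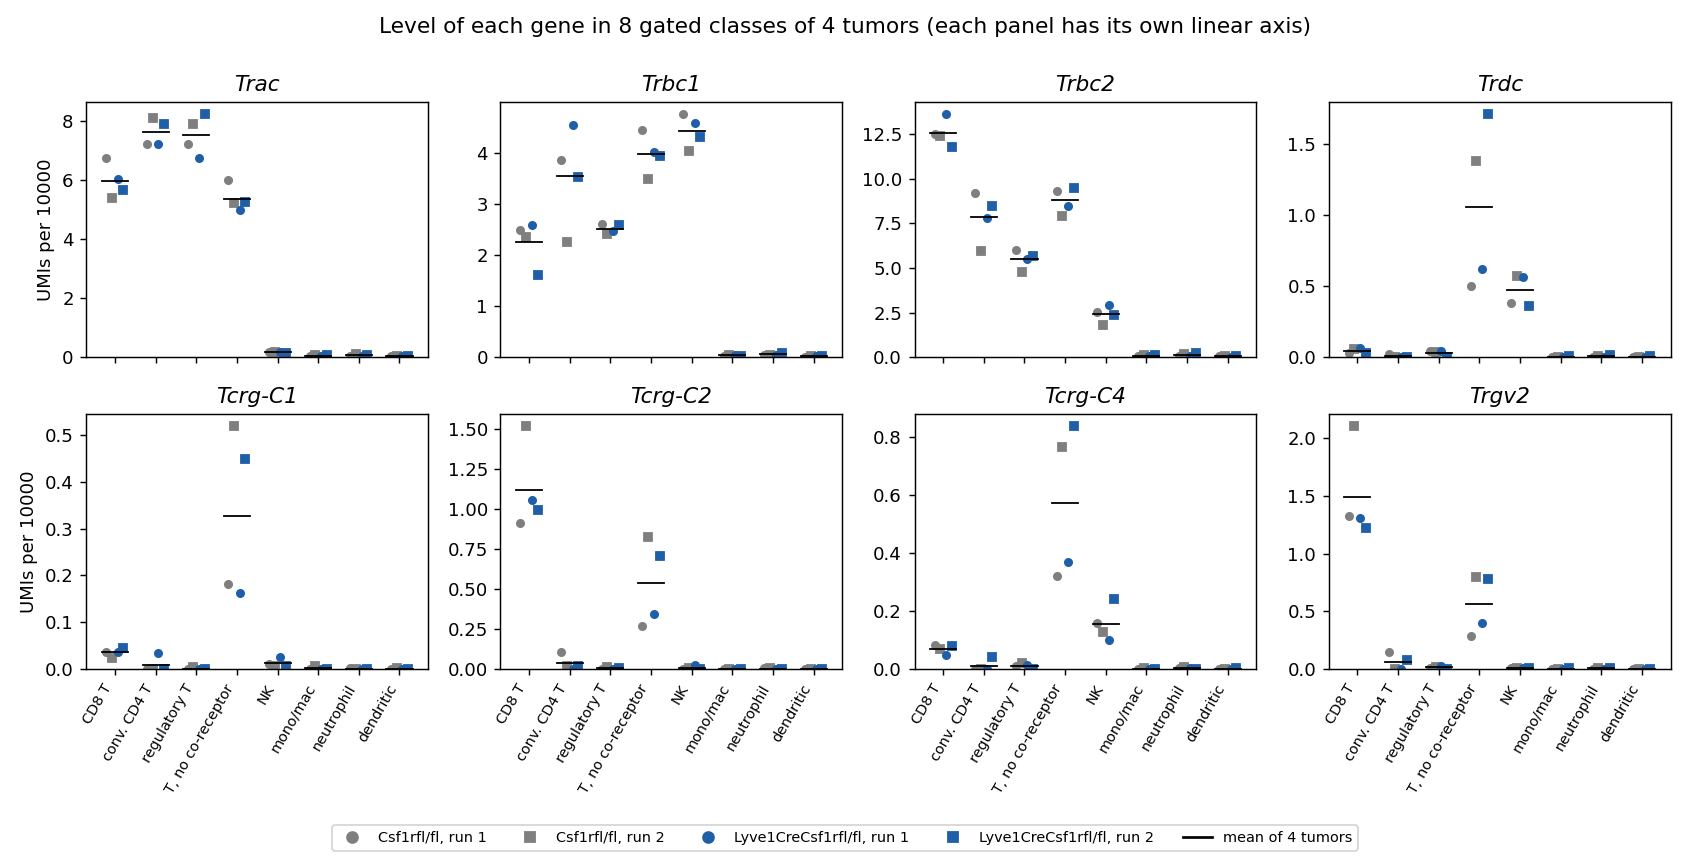
Level of each gene (UMIs per 10000 UMIs, linear axis, 1 axis per gene) in 8 classes of cells, with a point per tumor and a line at the mean of 4 tumors. Trac, at 5.38 or more in CD8, conventional CD4 and regulatory T cells, stayed at or below 0.182 in NK cells, while Trbc1 was at 4.04 to 4.76 in NK cells.

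Trbc1 was higher in NK cells than in CD8 T cells in every tumor. It was at 4.76, 4.04, 4.596 and 4.31 UMIs per 10000 in NK cells and at 2.49, 2.35, 2.59 and 1.61 in CD8 T cells. These classes did not overlap, and the lowest NK value was above the highest CD8 value. The mean was 4.43 ± 0.32 in NK cells, and a Trbc1 UMI was found in 77.0% ± 4.2 of NK cells against 33.4% ± 7.7 of CD8 T cells. Summed over tumors, the ratio of NK to CD8 T cells was 1.96, with a 95% interval of 1.86 to 2.06 that covers counting error only. Conventional CD4 T cells were at 3.86, 2.26, 4.54 and 3.54 and regulatory T cells at 2.61, 2.41, 2.48 and 2.59. Conventional CD4 T cells overlapped with NK cells and were above CD8 and regulatory T cells in 3 of 4 tumors, while in the Csf1rfl/fl tumor of run 2 they were below both. The means were 3.55 ± 0.96 and 2.52 ± 0.09. The cells with gamma delta 17 markers, at 3.54 and 5.04 in the 2 Lyve1CreCsf1rfl/fl tumors, and the other T cells without co-receptor UMIs, at a mean of 3.98, overlapped with NK cells as well. Myeloid cells were far below, at 0.0345 ± 0.0091 in monocytes and macrophages and 0.0544 ± 0.0237 in neutrophils. In NK cells 429 of 1321 had 3 or more Trbc1 UMIs and held 70.7% of the Trbc1 UMIs of the class.

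Most NK cells had no Trac UMI, so their Trbc1 level is near that of the class by construction. Among these 1227 NK cells, chosen after the values were seen, Trbc1 was at 4.53 UMIs per 10000 and in 76.9% of cells. Among the 769 that also had no Trbc2 UMI it was at 4.51 and in 75.0%. All cells of the class, including these, had no Cd3 UMI by the way the class was chosen. In all, 163 NK cells (12.3%) had no UMI of any of the 8 genes, against 115 T cells (2.02%) and 5868 monocytes and macrophages (92.8%).

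Trbc2 was higher in CD8 T cells than in NK cells in every tumor, the reverse of Trbc1. It was at 12.5, 12.4, 13.6 and 11.8 UMIs per 10000 in CD8 T cells, at 9.22, 5.95, 7.82 and 8.46 in conventional CD4 T cells and at 6.02, 4.78, 5.53 and 5.65 in regulatory T cells. The CD8 T cells were above every other class in all 4 tumors, and conventional CD4 and regulatory T cells overlapped. The CD8 mean was 12.6 ± 0.8, with a Trbc2 UMI in 95.03% ± 1.09 of cells. NK cells were at 2.41 ± 0.45, with a UMI in 37.4% ± 3.3 of cells, against 0.0766 ± 0.0392 and 3.75% ± 1.96 in monocytes and macrophages.

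The share of Trbc1 among all Trbc UMIs sets both genes against each other within the same cells and does not depend on depth per cell. It was 16.6%, 15.96%, 15.97% and 12.0% in CD8 T cells, 29.5%, 27.5%, 36.8% and 29.5% in conventional CD4 T cells, and 30.2%, 33.5%, 31.0% and 31.4% in regulatory T cells. NK cells had 65.5%, 68.9%, 61.2% and 64.5%. CD8 T cells were lowest and NK cells highest of these classes in each tumor. The share was lower in CD8 than in conventional CD4 T cells in 4 of 4 tumors, by a mean of 15.7 percentage points (15.1% against 30.8%, SD of the difference 4.2, n = 4). The exact permutation test over sign flips, two-sided, gave p = 0.13, the smallest that 4 tumors allow. Of the cells with 5 or more Trbc UMIs, 63.4% of 1635 CD8 T cells had more than 90% of them in Trbc2 and 0.979% in Trbc1. Among 337 such NK cells the order was turned, with 27.6% above 90% in Trbc1 and 2.37% in Trbc2. Neither gene was above 90% in 35.7% of the CD8 T cells, 60.9% of 192 conventional CD4 T cells, 69.2% of 377 regulatory T cells and 70.03% of the NK cells.

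**Figure D2:**
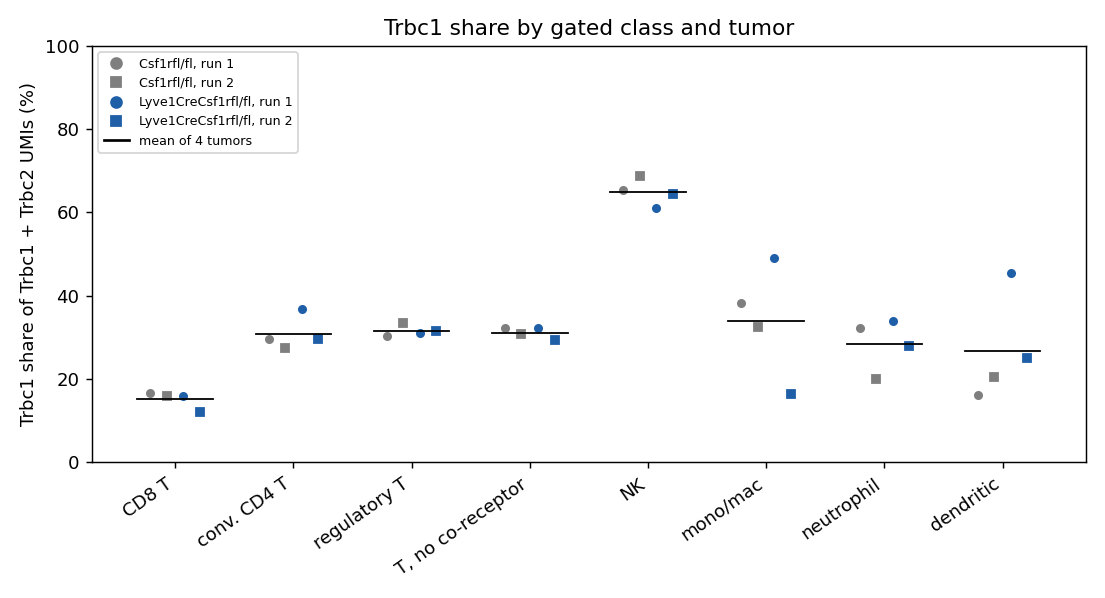
Share of Trbc1 among Trbc1 and Trbc2 UMIs (percent, y axis) by class, with a point per tumor and a line at the mean of 4 tumors. CD8 T cells sat between 12.0% and 16.6% and NK cells between 61.2% and 68.9%, and the myeloid classes, whose points rest on few UMIs, were scattered.

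The delta gene Trdc was low in T cells with a co-receptor and clear in NK cells. In NK cells it was at 0.384, 0.573, 0.562 and 0.361 UMIs per 10000, and in CD8 T cells at 0.0268, 0.0561, 0.0666 and 0.0290. No NK value was as low as any CD8 value. The means were 0.470 ± 0.113 and 0.0446 ± 0.0198, and the ratio of the summed levels was 11.0, with an interval of 8.27 to 14.9 for counting error. A Trdc UMI was found in 17.5% ± 2.9 of NK cells, 0.877% ± 0.404 of CD8 T cells and 0.151% ± 0.154 of monocytes and macrophages. Conventional CD4 T cells held 1 Trdc UMI in all and monocytes and macrophages 8. Of the 233 NK cells with Trdc, 182 had a single UMI.

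Tcrg-C4 was the gamma constant gene with the most UMIs in NK cells. It was at 0.159, 0.128, 0.1003 and 0.241 UMIs per 10000 there, with 99 UMIs in 58 cells, and at 0.0825, 0.0686, 0.0481 and 0.0806 in CD8 T cells. On this scale NK cells were above CD8 T cells in each tumor and the ranges did not overlap. The means were 0.157 ± 0.061 and 0.0700 ± 0.0158, and monocytes and macrophages held 7 UMIs. By share of cells with a UMI the ranges overlapped, at 2.56% to 6.98% of NK and 2.27% to 3.50% of CD8 T cells. That order was turned in the Csf1rfl/fl tumor of run 2, with 2.56% of NK and 3.44% of CD8 T cells. In NK cells, 12 cells with 3 or more Tcrg-C4 UMIs held 41 of the 99. Tcrg-C1 was close to absent from NK cells, with 8 UMIs in 8 cells, and CD8 T cells had 0.0357 ± 0.0083.

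Trdc was highest in the T cells with gamma delta 17 markers. With 4 and 8 cells in the Csf1rfl/fl tumors, only the Lyve1CreCsf1rfl/fl tumors, with 12 and 15 cells, gave the 10 cells asked for a level. Trdc UMIs numbered 11 and 12 in the Csf1rfl/fl tumors, and those of Tcrg-C1 0 and 9. In the Lyve1CreCsf1rfl/fl tumors Trdc was at 8.70 and 2.12 UMIs per 10000, Tcrg-C1 at 1.93 and 1.86, and Tcrg-C4 at 1.93 and 0.531. These levels rest on 27 and 8 UMIs of Trdc, 6 and 7 of Tcrg-C1, and 6 and 2 of Tcrg-C4. Trdc was several times higher in run 1 than in run 2. The counts of Tcrg-C1 and Tcrg-C4 are too few to compare the runs. Trac was at 2.26 and 3.18 there, below every tumor of the CD8 class. In the other T cells without co-receptor UMIs, Trdc was at 0.504 and 1.38 in the Csf1rfl/fl tumors and at 0.623 and 1.71 in the Lyve1CreCsf1rfl/fl tumors. Both tumors of run 2 were above both of run 1, and the same order held there for Tcrg-C1, Tcrg-C2, Tcrg-C4 and Trgv2. Over tumors these cells had 0.327 ± 0.183 of Tcrg-C1 and 0.574 ± 0.265 of Tcrg-C4.

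Over all T cells, Trac was found less often with Trdc than without. Of the 125 T cells with 2 or more Trdc UMIs, 25.6% had a Trac UMI, against 85.2% of the 5510 T cells with none, at similar median depths of 3195 and 3646 UMIs. None of these shares is corrected for the few UMIs read per cell. Of the 39 cells with gamma delta 17 markers, the 12 with 2 or more Trdc UMIs all lacked Trac, while 21 had no Trdc UMI and 52.4% of those had Trac. An alpha with a beta gene and a delta with a gamma gene were each seen together in 30.8% of these 39 cells. Of the 95 cells with 2 or more Trdc UMIs among the other T cells without co-receptor UMIs, 17.9% had Trac. Among CD8 T cells, 72.7% of the 11 cells with 2 or more Trdc UMIs had Trac, against 88.6% of those with none, at median depths of 6775 and 4409 UMIs. Of the 10 regulatory T cells with any Trdc UMI, 9 had Trac. Whether the classes differ in this was not tested. Tcrg-C4 was found in 46.4% of the 125 cells and in 2.87% of those without Trdc, and Tcrg-C1 in 27.2% and 1.71%. NK cells went the other way. Of the 51 NK cells with 2 or more Trdc UMIs, 0% had Tcrg-C4. Any Trdc UMI was seen in 233 NK cells, with Tcrg-C4 in 1.29% of these and in 5.06% of those without. The 1.29% are 3 cells, against 10.2 if the genes were spread independently. Tcrg-C1 was in none of the 233 and in 0.735% of the others, and both genes are sparse per cell. A delta and a gamma constant gene were seen together in 121 T cells (2.13%) and 4 NK cells, and an alpha with a beta gene in 76.9% of T cells and 6.28% of NK cells.

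CD8 T cells held 56.4% of all Tcrg-C2 UMIs and 53.6% of all Trgv2 UMIs of the kept cells. Tcrg-C2 was at 0.912, 1.51, 1.06 and 0.993 UMIs per 10000 in CD8 T cells, and Trgv2 at 1.32, 2.10, 1.31 and 1.22. Both were highest in the Csf1rfl/fl tumor of run 2, and the other 3 tumors lay close together. These are the kept cells: 716 CD8 T cells of the Lyve1CreCsf1rfl/fl tumor of run 2 that the authors did not keep had 0.0747 and 0.241. The means were 1.12 ± 0.27 and 1.49 ± 0.41, and a UMI was found in 30.7% ± 6.8 and 33.9% ± 5.7 of CD8 T cells. The cells with gamma delta 17 markers, at 0.644 and 1.33 of Tcrg-C2 and 0.644 and 2.39 of Trgv2 in the 2 Lyve1CreCsf1rfl/fl tumors, overlapped with CD8 T cells. These levels of Tcrg-C2 rest on only 2 and 5 UMIs, and all 39 cells of this class held 16 Trgv2 UMIs. The other T cells without co-receptor UMIs had means of 0.536 and 0.565, and those with mixed co-receptor UMIs 0.305 and 0.559. Conventional CD4 T cells had 0.0372 ± 0.0485 of Tcrg-C2 and 0.0587 ± 0.0734 of Trgv2, from 7 and 11 UMIs in 3 and 2 cells. Regulatory T cells held 4 and 10 UMIs and NK cells 5 and 7. Each NK cell with either gene held 1 UMI of it, and the summed levels in NK cells were 6.51 and 3.31 times those in monocytes and macrophages, with counting intervals of 1.40 to 32.8 and 1.09 to 9.36. Against neutrophils the ratios were 1.92 and 1.79, with intervals of 0.463 to 7.55 and 0.567 to 5.40 that both include 1. With Cd3 UMIs allowed in monocytes and macrophages, their levels of both, 0.0234 and 0.0383, were above those in NK cells, 0.0084 and 0.0110. The NK cells were still chosen without Cd3 UMIs there. The Tcrg-C2 UMIs of CD8 T cells outnumbered those of Tcrg-C1, 1489 against 48, with the split between this pair uncertain as given above.

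Tcrg-C2 and Trgv2 shared cells. In CD8 T cells 523 had both, against 251 if the genes were spread independently, and 70.0% of the cells with Tcrg-C2 had Trgv2 against 17.9% of those without. Deeper cells give more UMIs of both genes, and the part of depth in this overlap was not tested. Trac was found in 91.4% of the CD8 T cells with Tcrg-C2 and Trbc2 in 97.99%, near the 88.3% and 95.1% over all CD8 T cells.

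**Figure D3:**
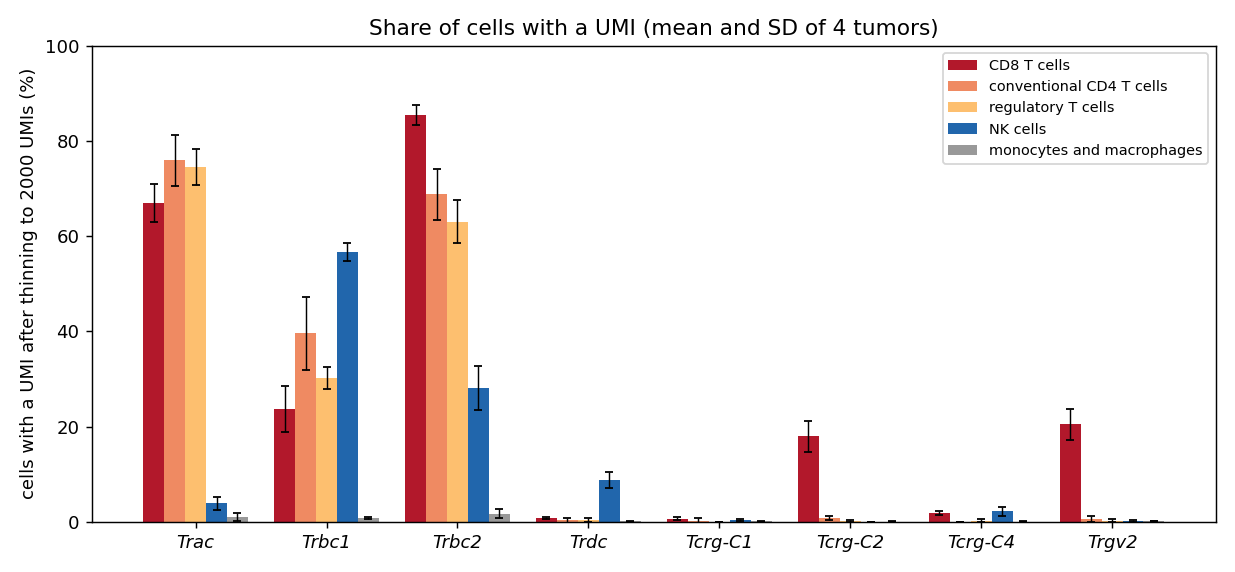
Percent of cells with a UMI of each gene after each cell was thinned to 2000 UMIs, as the mean over 4 tumors with the SD as error bar, in 5 classes. Trbc1 was found in 56.7% of NK cells and 23.7% of CD8 T cells, and Tcrg-C2 and Trgv2 in 17.9% and 20.4% of CD8 T cells.

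Thinning every cell to 2000 UMIs leaves out 184 CD8 T cells, 178 NK cells and 489 monocytes and macrophages below that depth. The shares of cells with a UMI kept the order of NK and CD8 T cells for Trbc1, Trdc, Tcrg-C2 and Trgv2. Trbc1 was then found in 56.7% ± 1.9 of NK cells, 23.7% ± 4.9 of CD8 T cells and 0.680% ± 0.220 of monocytes and macrophages. Trdc was found in 8.70% ± 1.64 of NK cells and 0.791% ± 0.247 of CD8 T cells. Tcrg-C2 was found in none of the 1143 NK cells left, and Trgv2 in 0.0893% ± 0.1786.

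Within the CD8 T cells, Tcrg-C2 and Trgv2 were low in cells with Tcf7, which encodes a transcription factor of naive and stem-like T cells. Cells were called cycling with a UMI of Mki67 or Top2a, and the others were split by Tcf7. In the 288 noncycling cells with Tcf7, Tcrg-C2 was at 0.377, 0.667, 0.432 and 0.268 UMIs per 10000, and in the 1059 with neither sign at 0.875, 2.10, 1.17 and 1.13. Every tumor was lower in the Tcf7 cells, and the 1139 cycling cells, at 1.16 ± 0.18, were close to those with neither. Trgv2 followed, at 0.550 ± 0.154 in the Tcf7 cells, 1.56 ± 0.35 in cycling cells and 1.65 ± 0.58 in the rest. The Trbc1 share was 26.0% ± 5.1 in the Tcf7 cells, 13.4% ± 4.3 in cycling cells and 14.98% ± 0.87 in the rest. The other gamma and delta genes, with few UMIs, had higher means in the Tcf7 cells than in cycling cells and the rest. Trdc was at 0.170 ± 0.135, 0.0345 ± 0.0404 and 0.0241 ± 0.0251, Tcrg-C4 at 0.156 ± 0.087, 0.0653 ± 0.0281 and 0.0624 ± 0.0366, and Tcrg-C1 at 0.0999 ± 0.0902, 0.0256 ± 0.0111 and 0.0305 ± 0.0309. All 3 were higher in the Tcf7 cells than in the rest in 3 of 4 tumors and lower in the Csf1rfl/fl tumor of run 2, and those ranges overlapped. Trac differed less, at 5.31 ± 0.39, 5.63 ± 0.60 and 6.88 ± 0.43. The states were set by measured genes and no test was run between them. In regulatory T cells the Trbc1 share was 28.2% ± 2.1 in 594 cycling cells and 37.0% ± 2.4 in 630 cells with neither sign, and the ranges did not overlap.

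**Figure D4:**
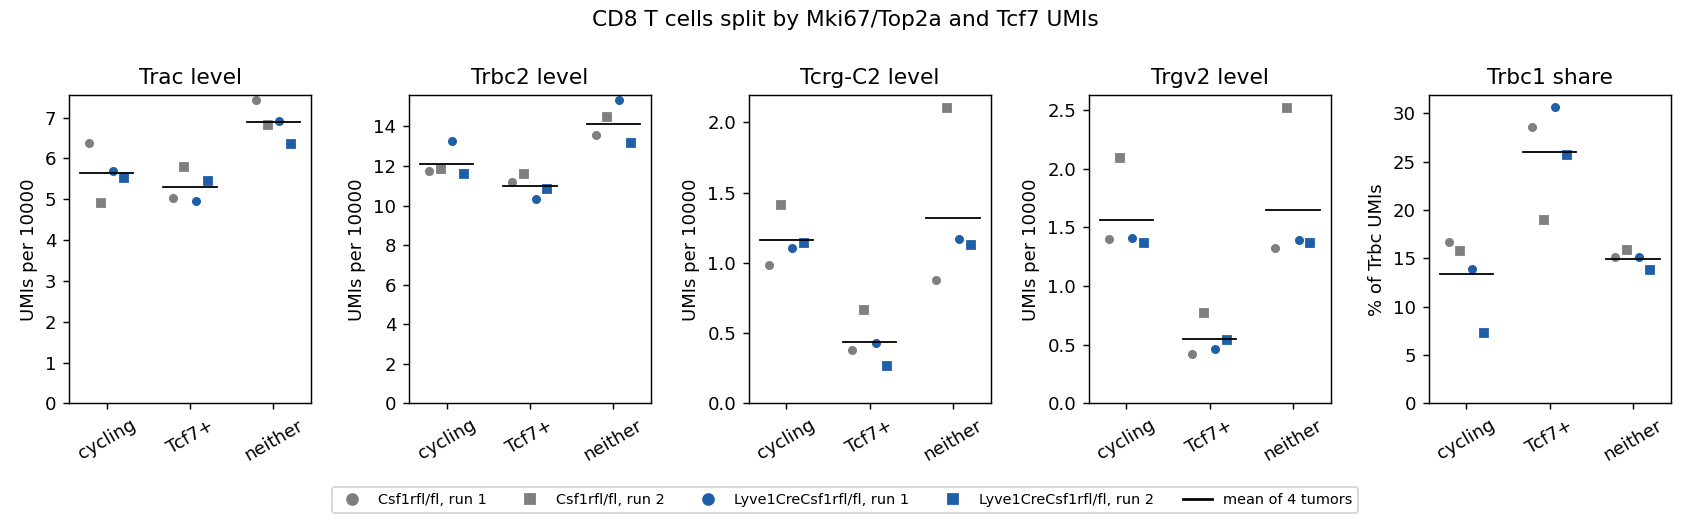
Levels (UMIs per 10000) of Trac, Trbc2, Tcrg-C2 and Trgv2 and the Trbc1 share (percent of Trbc UMIs) in CD8 T cells that were cycling, that had Tcf7 without cycling genes, or neither, with a point per tumor and a line at the mean of 4 tumors. In each tumor Tcrg-C2 was lowest and the Trbc1 share highest in the Tcf7 cells.

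The tests between classes used edgeR's quasi-likelihood test on UMIs summed per tumor and class, with the tumor as a term, Benjamini-Hochberg adjustment over all genes tested and a threshold of 0.05. Changes are on the log2 scale and given ± SE. Of the 6 receptor genes tested, 4 were called higher and 2 lower in CD8 than in conventional CD4 T cells. Over all 9654 genes 19.2% passed, 9.7% higher and 9.51% lower. Tcrg-C2, Trgv2 and Tcrg-C4 passed the count filter through CD8 T cells, with 7, 11 and 2 UMIs in conventional CD4 T cells. A higher call for these genes was close to fixed in advance, so no conclusion is drawn from the tally. Tcrg-C2 was higher by 5.12 ± 0.34 (edgeR adjusted p = 2.30e-10), Trgv2 by 4.87 ± 0.53 (adjusted p = 0.00153) and Trbc2 by 0.82 ± 0.08 (adjusted p = 8.59e-07). Tcrg-C4 was higher by 2.86 ± 0.80 (edgeR adjusted p = 0.0104). It had only 2 UMIs in conventional CD4 T cells, all from the Lyve1CreCsf1rfl/fl tumor of run 2, and the ratio of the summed levels was 7.29 with a counting interval of 1.96 to 61.0. Trac was lower by 0.23 ± 0.08 (edgeR log2 -0.23, adjusted p = 0.0459) and Trbc1 by 0.51 ± 0.16 (log2 -0.51, adjusted p = 0.0436). In the normalized CPM of this fit, Trac was turned in the Csf1rfl/fl tumor of run 1 (760.5 in CD8 against 742.04 in conventional CD4 T cells) and Trbc1 in that of run 2 (230.03 against 203.3), so each was lower in 3 of 4 tumors. Both of these calls and that on Tcrg-C4 were lost when certain single tumors were left out. Trac had edgeR adjusted p = 0.337 and 0.233 without the Csf1rfl/fl or the Lyve1CreCsf1rfl/fl tumor of run 2. Trbc1 had edgeR adjusted p = 0.136 without the Csf1rfl/fl tumor of run 1, and 0.180 and 0.0945 without the Lyve1CreCsf1rfl/fl tumor of run 1 or run 2. Tcrg-C4 had edgeR adjusted p = 0.0724 without the Csf1rfl/fl tumor of run 1. The sizes moved too. Without that tumor, which held 5 of the 7 Tcrg-C2 and 7 of the 11 Trgv2 UMIs of conventional CD4 T cells, the changes were 6.57 for Tcrg-C2 and 5.98 for Trgv2. Without the Csf1rfl/fl tumor of run 2, Trgv2 changed by 4.27, and over all 4 removals Tcrg-C2 ran from 4.67 to 6.57. Tcrg-C4 ran from 2.40 to 6.72, the last without the Lyve1CreCsf1rfl/fl tumor of run 2, where no UMI was left in conventional CD4 T cells.

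Without the tumor as a term, neither Trac nor Trbc1 passed (edgeR adjusted p = 0.403 and 0.156). With no limit on myeloid UMIs in T cells, chosen after seeing the data, edgeR adjusted p was 0.586 for Trac and 0.123 for Trbc1. Trac had adjusted p = 0.282 with DESeq2 and 0.238 in edgeR with no filter, and Tcrg-C4 had 0.0745 with DESeq2. Trdc and Tcrg-C1, with 58 and 50 UMIs over both classes, were too low to test.

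Genes that act with the receptor split in both directions between these classes. Of the 25 tested of a list of 29 signaling, adaptor and transcription factor genes of T cells, 5 were higher in CD8 T cells and 10 lower. Over all 9654 genes tested, 9.7% were higher and 9.51% lower. The median change was -0.06 in the list against 0.02 over all genes. The largest changes among the called list genes were those of the adaptor Trat1 (log2 -2.42 ± 0.32) and Runx3, a factor of the CD8 lineage (1.72 ± 0.12). Next were Cd5, an inhibitory receptor of T cells (-1.67 ± 0.14), and Gata3, a factor of CD4 lineages (-1.54 ± 0.13).

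Regulatory T cells had less Trbc2 than conventional CD4 T cells in all 4 tumors and less Trbc1 in 3 of 4, and a difference in Trac was not detectable. The conventional CD4 T cells may include regulatory T cells whose Foxp3 was not read. In the Csf1rfl/fl tumor of run 2, Trbc1 was at 228.3 normalized CPM in regulatory and 216.4 in conventional CD4 T cells. Trbc1 was lower by 0.50 ± 0.12 (log2 -0.50, edgeR adjusted p = 0.0110) and Trbc2 by 0.53 ± 0.07 (log2 -0.53, adjusted p = 6.88e-07), while Trac changed by -0.04 ± 0.06 (adjusted p = 0.825). So 2 of the 3 tested genes were lower, where 4.84% of 7849 genes passed and 2.9% were lower. Since both beta genes moved by about the same amount, the Trbc1 share was alike, at 31.5% ± 1.4 and 30.8% ± 4.1. Without the tumor as a term neither beta gene passed (edgeR adjusted p = 0.309 and 0.233). The call on Trbc1 was also lost without the tumor of run 1 of either genotype (edgeR adjusted p = 0.217 for Csf1rfl/fl and 0.107 for Lyve1CreCsf1rfl/fl), and DESeq2 gave it adjusted p = 0.0897. Of the 25 list genes tested, none was higher and 6 were lower, with a median of -0.18 against -0.004 over all genes. They included Tcf7 (-2.44 ± 0.21), Themis, which tunes receptor signals (-1.47 ± 0.18), the kinase Prkcq (-0.92 ± 0.19) and the adaptor Sh2d1a (-0.89 ± 0.17).

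NK cells were above monocytes and macrophages in all 5 receptor genes tested, where 72.6% of 10859 genes passed and 35.2% were higher. Trdc and Tcrg-C4 passed the count filter through NK cells, so a higher call for them was close to fixed in advance. Tcrg-C1, Tcrg-C2 and Trgv2, low in both classes, were not tested, and no conclusion is drawn from the tally. Trbc1 was higher by 6.69 ± 0.13 (edgeR adjusted p = 5.12e-30), Trbc2 by 4.77 ± 0.41 (adjusted p = 0.00124) and Trac by 1.65 ± 0.25 (adjusted p = 1.25e-06). Trdc was higher by 7.20 ± 0.29 (edgeR adjusted p = 5.21e-21), against 8 UMIs in monocytes and macrophages, and Tcrg-C4 by 5.72 ± 0.43 (adjusted p = 8.92e-14), against 7. Without the Csf1rfl/fl tumor of run 1 or run 2, Tcrg-C4 was higher by 5.06 or 6.85. As summed levels, the ratios were 125 for Trbc1 (counting interval 104 to 151), 34.1 for Trbc2 (29.7 to 39.3), 192 for Trdc (96.2 to 449) and 3.66 for Trac (2.82 to 4.72). The excess of Trac was the smallest of the 5, and it depends on how the myeloid class was chosen. With Cd3 UMIs allowed in monocytes and macrophages, their Trac level was 0.694 UMIs per 10000 against 0.166 in NK cells, so the order was turned. The NK cells were still chosen without Cd3 UMIs in this setting, so the classes were not chosen alike. Trbc1 was then at 0.355 against 4.43, Trbc2 at 0.892 against 2.41, Trdc at 0.0242 against 0.470 and Tcrg-C4 at 0.0118 against 0.157, all still higher in NK cells, and this choice was not tested with edgeR. Of the 19 list genes tested, 17 were higher and 2 lower in NK cells, with a median of 5.05 against 0.01 over all genes, and the largest were Sh2d1a (7.50 ± 0.19), the adaptor Skap1 (6.94 ± 0.14), Prkcq (6.51 ± 0.19) and the kinase Lck (5.72 ± 0.14).

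The T cells with gamma delta 17 markers were compared with CD8 T cells in the 2 Lyve1CreCsf1rfl/fl tumors, which leaves 1 residual degree of freedom. The p-values of this fit therefore lean on the spread shared over genes, not on that of 2 tumors alone. Trdc was higher by 6.17 ± 0.67 (edgeR adjusted p = 1.43e-17), Tcrg-C1 by 4.94 ± 0.93 (adjusted p = 8.13e-06) and Tcrg-C4 by 3.61 ± 1.09 (adjusted p = 0.0225). Trac was lower by 1.63 ± 0.34 (log2 -1.63, edgeR adjusted p = 7.19e-05) and Trbc2 by 1.18 ± 0.22 (log2 -1.18, adjusted p = 6.48e-06). These were 3 higher and 2 lower of 8 tested, where 5.6% of 8338 genes passed, 0.983% higher and 4.62% lower, and the median over all genes was -0.57. Trdc, Tcrg-C1 and Tcrg-C4 passed the count filter through the cells with gamma delta 17 markers, which were themselves chosen by genes of gamma delta T cells. A higher call for these genes was close to fixed in advance, so no conclusion is drawn from the tally. Trbc1 (0.55 ± 0.38), Tcrg-C2 (-0.56 ± 0.64) and Trgv2 (-0.23 ± 0.54) did not pass. DESeq2 gave adjusted p = 0.118 for Trac and 0.241 for Trbc2, kept the calls on Trdc and Tcrg-C1, and gave no adjusted p for Tcrg-C4, which had edgeR adjusted p = 0.0876 with no filter on low counts. Without the tumor as a term, edgeR gave adjusted p = 0.0630 for Trbc2. Of the 24 list genes tested, none was higher and 5 lower, among them Sh2d1a (-3.83 ± 0.996), Cd6 (-3.79 ± 0.999), Themis (-3.69 ± 1.02) and Cd28 (-2.81 ± 0.84), with a median of -0.70.

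The genotypes were compared to see whether receptor genes change in T and NK cells when Csf1r is deleted in Lyve1-expressing cells of the host. No receptor gene passed in any class. Of the genes tested, edgeR called 0 of 11326 in all T cells, 0 of 9950 in CD8, 0 of 6047 in conventional CD4 and 0 of 8843 in regulatory T cells, and 0 of 8537 in NK cells, a background of 0%. At an unadjusted p under 0.05 there were 169, 206, 169, 119 and 101 genes, and DESeq2 called 1 gene in all T cells and 1 in conventional CD4 T cells. With the run as a block, edgeR called 67 genes in CD8, 18 in conventional CD4 and 1 each in regulatory T and NK cells, and no receptor gene. None was called with any 1 tumor left out either. The receptor genes tested numbered 8, 8, 3, 3 and 5, and no list gene passed.

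The lowest unadjusted p of a receptor gene was that of Trgv2 in all T cells. It was at 100, 106, 67.0 and 74.8 normalized CPM, so both Lyve1CreCsf1rfl/fl tumors were below both Csf1rfl/fl tumors. The change was -0.54 ± 0.17 (edgeR adjusted p = 0.9998, unadjusted 0.0128), and within runs 1 and 2 it was -0.58 and -0.50. Tcrg-C2 moved alike, by -0.36 ± 0.17 (edgeR adjusted p = 0.9998), with -0.35 and -0.38 within runs. CD8 T cells, which hold most UMIs of both genes, made up 905 of 1558 and 494 of 1297 T cells in the Csf1rfl/fl tumors and 573 of 1611 and 514 of 1228 in the Lyve1CreCsf1rfl/fl tumors. Within CD8 T cells the change of Trgv2 was -0.40 ± 0.22, with -0.04 and -0.75 within runs. Their part in the difference over all T cells was not tested. Trdc changed by 0.53 ± 0.30 in all T cells (edgeR adjusted p = 0.9998), with 0.98 and 0.25 within runs, and by -0.02 ± 0.30 in NK cells, with 0.51 and -0.64. In NK cells Trbc1 changed by 0.002 ± 0.293.

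**Figure D5:**
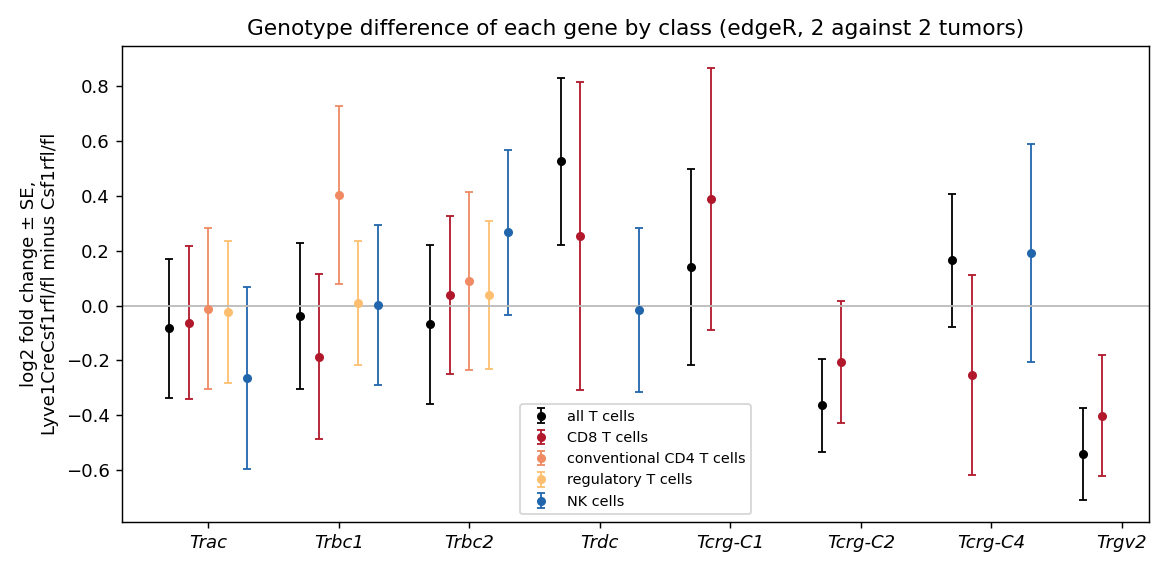
Log2 fold change of each gene between genotypes (Lyve1CreCsf1rfl/fl minus Csf1rfl/fl, 2 tumors each) with its SE, in 5 classes, for the genes tested. No adjusted p passed 0.05, and the largest change was that of Trgv2 in all T cells, -0.54.

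The Trbc1 share in all T cells was 20.9% and 21.6% in the Csf1rfl/fl tumors and 23.4% and 19.2% in the Lyve1CreCsf1rfl/fl tumors. The genotypes overlapped, with a mean difference of 0.0775 percentage points (exact permutation test, two-sided, p = 1, smallest possible 0.33), and the difference was 2.55 within run 1 and -2.39 within run 2. A test with edgeR of whether the genotype change differed between classes called no receptor gene. Over all genes it called 13 of 9654 between CD8 and conventional CD4 T cells. It called 0 of 7849 between regulatory and conventional CD4 T cells and 0 of 9988 between NK and CD8 T cells. With so few calls over all genes, no conclusion is drawn about the receptor genes. Their lowest edgeR adjusted p was 0.309, for Trbc1 between CD8 and conventional CD4 T cells (-0.65 ± 0.19).

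The genes most like 3 of the set over 40 sums of 10 classes and 4 tumors were named from 12061 genes by Pearson's r of log2 levels, as a description, since the sums share libraries and classes. The cells with gamma delta 17 markers, where Trdc was highest, were under the 20 cells per sum asked for and are not among the 10 classes. For Trac they were Bcl11b, a factor of T cell identity (r = 0.983), then Cd3d, Cd3g and Cd3e, which chose the T cells, and the receptor Cd6 (0.979). For Trdc they were Klra7 (r = 0.8998), Klra5, Klrb1c, which helped to choose the NK cells, and Klra1, all NK cell receptors, then Tcrg-C4 (0.853). For Tcrg-C2 they were Trgv2 (0.971), Dapl1 (0.873), Hdgfl3, Rgs8 and Gzmk, a granzyme of CD8 T cells (0.795).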

How the data were processed

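The authors aligned reads of Chromium 3′ libraries to mm10 with Cell Ranger 6.0.1 and deposited UMI counts per gene and barcode and counts of both hashtag antibodies. They also deposited corrected counts from SCTransform (whole-number scores), which were used only to learn which cells the authors kept: singlets under 5% mitochondrial UMIs, outside clusters of 1 tumor. No doublet caller was run here. Hashtags assigned each cell to a tumor within its run after a centered log ratio, and in 86 cells the raw hashtag counts favored the other tumor. The labels put 1 tumor of each genotype in each run, so the run pairs tumors. The correlation of deviations from the genotype means within runs was 0.165 to 0.356.

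Classes rest on raw UMIs of 45 of 46 listed marker genes. Sums per tumor with at least 10 cells were tested with edgeR 4.0.16 (filterByExpr, TMM, robust quasi-likelihood) in R 4.3.3, and DESeq2 1.42.0 was an alternative. SEs come from the log2 change and its statistic. Python 3.11.15 with numpy 2.4.6, scipy 1.17.1 and pandas 2.3.3 gave levels, exact permutation tests and Clopper-Pearson intervals of ratios at 95%. A count of 0 allows a share of 3 cells of the total. Intervals cover counting error only. The fits were tested on simulated counts. Sequences came from the reference genome and the GENCODE annotation of mm10. The named genes are the set, up to 4 called list genes per comparison, and the 5 most alike in pattern among genes with 200 or more UMIs, on log2(level + 0.01). The members and lists were chosen with earlier results of these data known.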

Additional observations from a re-analysis of the deposited data

Results flagged for a closer look

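Cells that pass the T cell criteria but were not among the cells the authors kept lie outside the comparisons and still held Trbc1 above zero counts. They numbered 190 and 1628 in the Lyve1CreCsf1rfl/fl tumors of runs 1 and 2, against 65 and 139 in the Csf1rfl/fl tumors. Their Trbc1 level was 3.41 and 4.34 UMIs per 10000, against 2.60 and 2.68. In the Lyve1CreCsf1rfl/fl tumor of run 2 these cells outnumbered the 1228 kept T cells, and 716 of them were CD8 T cells, with Trbc1 at 3.93 against 1.61 in the kept CD8 T cells. In these 716 cells Tcrg-C2 was at 0.0747 and Trgv2 at 0.241, against 0.993 and 1.22 in the kept CD8 T cells of that tumor. The 74 removed CD8 T cells of the Lyve1CreCsf1rfl/fl tumor of run 1 had 0.489 and 1.06, against 1.06 and 1.31 in the kept cells. The genotype comparisons therefore cover the kept cells only, and the part of the removal in them was not tested. The paper removed clusters specific to the Lyve1CreCsf1rfl/fl tumor of run 2 as potential contaminants, and described them as lymphocytes high in ribosomal gene expression. Which of the cells above lay in those clusters was not tested.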

How the results depend on the processing

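No receptor gene was called between genotypes under any alternative; the lowest adjusted p was 0.147, for Trdc in all T cells. Over all genes, edgeR with the run as a replicate block called 67 genes in CD8, 18 in conventional CD4, 1 in regulatory T and 1 in NK cells, where it called 0 without the block. DESeq2 called 1 in all T cells and 1 in conventional CD4 T cells, and with no filter beyond 1 UMI edgeR called 36 in CD8, 3 in conventional CD4 and 6 in regulatory T cells. Between classes, CD8 against conventional CD4 T cells gave 983 genes without the replicate block and 977 with DESeq2. Regulatory against conventional CD4 T cells gave 78 and 124, and cells with gamma delta 17 markers against CD8 T cells gave 69 with DESeq2. With 1 tumor left out, where the lone tumor of a genotype is assumed to vary like the others, the counts by genotype were 0 to 23 in all T, 1 to 38 in CD8, 3 to 18 in conventional CD4, 1 to 11 in regulatory T and 0 to 13 in NK cells, and 219 to 316 for regulatory against conventional CD4 T cells. The highest counts by genotype came without the Csf1rfl/fl tumor of run 2 in all T, CD8 and regulatory T cells and without that of run 1 in conventional CD4 T and NK cells.

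Genotype changes that took both signs with 1 tumor left out were, in all T cells, Trac (-0.25 to 0.11), Trbc1 (-0.34 to 0.21), Trbc2 (-0.30 to 0.22), Tcrg-C1 (-0.22 to 0.67) and Tcrg-C4 (-0.085 to 0.38). In CD8 T cells they were Trac (-0.31 to 0.25), Trbc1 (-0.70 to 0.20), Trbc2 (-0.19 to 0.24), Trdc (-0.56 to 0.85), Tcrg-C2 (-0.43 to 0.066) and Tcrg-C4 (-0.56 to 0.035). In conventional CD4 T cells they were Trac (-0.039 to 0.0038), Trbc1 (-0.0072 to 0.95) and Trbc2 (-0.27 to 0.55), and in regulatory T cells Trac (-0.071 to 0.017), Trbc1 (-0.14 to 0.17) and Trbc2 (-0.20 to 0.32). In NK cells they were Trbc1 (-0.21 to 0.27), Trbc2 (-0.033 to 0.67), Trdc (-0.48 to 0.36) and Tcrg-C4 (-0.43 to 0.62). The difference in Trbc1 share by genotype ran from -2.01 to 2.16 percentage points, and was -0.50 over cells with one gene alone and -0.226 with stricter criteria. With no limit on myeloid UMIs in T cells, chosen after seeing the data, Trac, Trbc1 and Trbc2 changed by 0.11, 0.17 and 0.11 in all T cells. Trbc1 in regulatory T cells changed by -0.016 with stricter criteria, and Trac between regulatory and conventional CD4 T cells by 0.015 with no filter. The cause was not tested.

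Of 170 refitted changes between classes, 147 kept their direction and side of the threshold, 22 lost the call and 1 changed sign. The losses were 5 with DESeq2, 5 without the replicate block, 2 with no myeloid limit, 2 with no filter and 8 with a tumor left out, each given beside its result. Of 280 recomputed levels, 250 moved by less than 1 SD. With Cd3 UMIs allowed, monocytes and macrophages had 0.694 UMIs per 10000 of Trac and 0.355 of Trbc1. This puts Trac above its level in NK cells, 0.166, which were still chosen without Cd3 UMIs. Conventional CD4 T cells held 1 to 11 UMIs of each gamma and delta gene, which limits the precision of those levels. Cells with gamma delta 17 markers could not be tested with a tumor left out, since no residual degrees of freedom remain.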

Other observations

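Beside the 8 genes, 176 other receptor columns were in the table, and 111 of them had a UMI, 7251 UMIs in all. They include the gamma constant column Tcrg-C3, with 90 UMIs, of which 48 were in CD8 T cells and 0 in NK cells. Of these columns the delta variable segment Trdv4 had the most UMIs, 778. In NK cells it was at 0.651 and 0.627 UMIs per 10000 in the Csf1rfl/fl tumors and at 0.508 and 0.468 in the Lyve1CreCsf1rfl/fl tumors, while CD8 T cells held 8 UMIs. It was thus read in the NK cells of every tumor, as Trdc was.

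The beta variable segment Trbv20 was uneven between tumors. CD8 T cells had 300 UMIs in 222 of 905 cells in the Csf1rfl/fl tumor of run 1, but 40 UMIs in the Csf1rfl/fl tumor of run 2 and 1 and 29 in the Lyve1CreCsf1rfl/fl tumors. The alpha variable segment Trav8n-2 was also highest in the first of these tumors, with 222 UMIs in 153 CD8 T cells, against 1, 10 and 36 in the others. No test was run on these columns.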
